A study of Mus musculus with 8 samples.

Results

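The proteasome genes of mouse spleen were compared between wild-type and TTPΔARE animals. The members were all genes whose symbol begins with Psma to Psmg followed by a digit, with the transcript of the highest mean level kept for each symbol, which gave 49 symbols from 53 matching transcripts of 23517 in the table. RNA from whole spleens was sequenced for 8 males of the C57BL/6 strain between 8 and 12 weeks old, 4 of wild-type genotype (WT) and 4 carrying TTPΔARE, an allele of Zfp36 whose mRNA lacks its own AU-rich element. The mice had no treatment, and the zygosity of the allele is not given in the sources used here. Zfp36 encodes tristetraprolin (TTP), a protein that binds AU-rich elements in mRNAs and promotes their decay. Levels are FPKM, the sequenced fragments of a transcript scaled to its length and to the depth of the library, so that levels of different genes can be set side by side per unit of length. Whole spleens were used, so fewer cells of a type and less RNA per cell cannot be told apart.

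The proteasome is the particle that degrades proteins tagged with ubiquitin. Its 20S core is a barrel of α rings, which gate the entry, and β rings, of which Psmb5, Psmb6 and Psmb7 encode the subunits that cut peptide bonds. In cells of the immune system, and elsewhere after interferon-γ, these are replaced by Psmb8, Psmb9 and Psmb10, and the resulting immunoproteasome yields peptides suited to presentation on MHC class I. The 19S particle recognises and unfolds the substrate: its base holds the ATPases Psmc1 to Psmc6, and its lid holds Psmd14, the enzyme that removes ubiquitin. Other caps (Psme genes), an inhibitor (Psmf1) and assembly chaperones (Psmg genes, Psmd5, Psmd9 and Psmd10) bind the core or the base.

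Zfp36 stood at 37.9, 42.1, 44.9 and 36.4 FPKM in the WT spleens and at 57.5, 46.1, 55.1 and 52.9 FPKM in the TTPΔARE spleens, with no overlap. The rise was 0.39 on the log2 scale (SE 0.0848, limma adjusted p = 0.0323), and leaving out WT spleen 1 or 4, or spleen 1, 3 or 4 of the TTPΔARE mice, lost the call (adjusted p = 0.0668 to 0.108). With the mean level of erythroid marker genes as a covariate the value was 0.20 (adjusted p = 0.880). That covariate was lower in every WT spleen than in every TTPΔARE spleen, so here and below such a fit cannot cleanly separate it from genotype. A level of the whole transcript does not show the deletion itself. Depth estimated from the steps between low values was about 28360000 to 32280000 fragments a library. B cell genes, which mark the tissue, were detected in every library, all 10 of those listed at a mean of at least 15.2 FPKM. One library stood apart for the proteasome genes: WT replicate 1 had the highest value of the 8 spleens for 20 of the 46 proteasome genes tested, 43.5%, against 18.8% of all transcripts tested. The summed level of these 46 genes was 1444 FPKM in WT replicate 1 and 1205 to 1325 FPKM in the other spleens.

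Proteasome mRNA levels differed little between the genotypes. Of the 49 symbols 47 passed the minimum mean of 0.5 FPKM and were tested, and Psmc3ip, which matches the pattern of names but encodes a meiotic recombination cofactor and no proteasome part, was the only call. Of the 46 proteasome genes tested, by limma 0 rose and 0 fell over all transcripts (adjusted p under 0.05), and 4 had an unadjusted p under 0.05. Among all 16608 transcripts tested 4.00% passed in either direction (2.01% higher and 1.99% lower), and 21.1% had an unadjusted p under 0.05, against 10.6% of the 47 members (5 of them). The log2 difference was above 0 for 22 of the 46 genes and below 0 for 24. Its median was -0.01, beside 0.003 for all transcripts tested and -0.02 for the 4176 with a mean of at least 10 FPKM. The median size of the difference, regardless of sign, was 0.04 for the 46 genes, 0.09 for all transcripts tested and 0.08 for the 4176 with a mean of at least 10 FPKM.

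**Figure D1:**
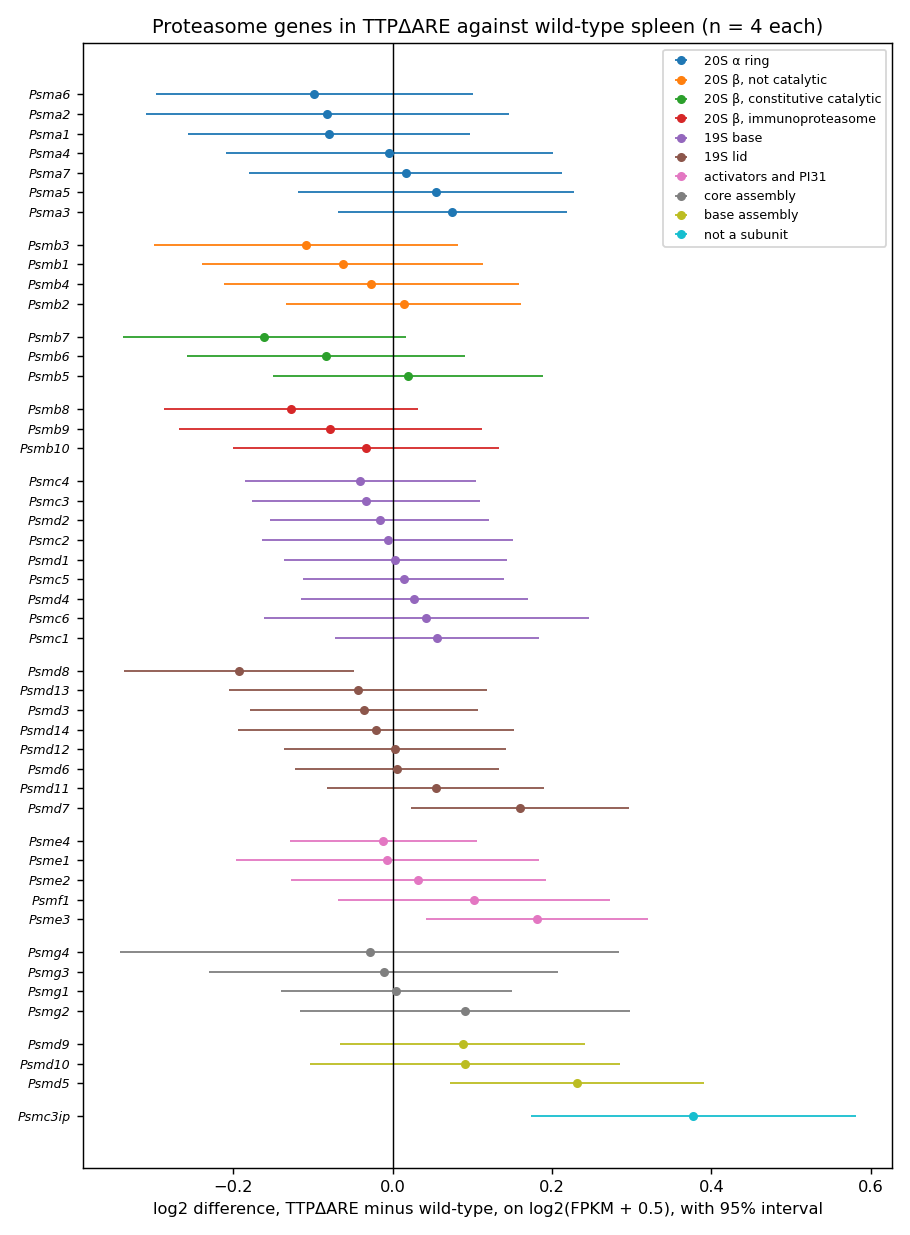
Log2 difference of each tested gene (TTPΔARE minus WT, on log2(FPKM + 0.5), x axis) with its 95% limma interval, not adjusted for the number of genes, 4 spleens a group, coloured by role. The intervals of Psmd5, Psmd7, Psmd8, Psme3 and Psmc3ip leave out 0, and only Psmc3ip passed after adjustment.

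The intervals bound the size of a difference these data could hold. On FPKM + 0.5, the 95% interval of the fold lay within 1.3-fold in either direction for 45 of the 46 genes. The exception was Psmd5, with an upper bound of 1.31-fold, and the lowest bound was 0.789-fold, for the kept transcript of Psmg4. The added 0.5 understates changes of low transcripts such as Psmg4, so the bounds on FPKM itself are wider. A p that misses the threshold does not show that the levels were the same, and these intervals apply to each gene on its own. In simulated data of this size limma recovered 10% of 1.2-fold changes, 44% of 1.3-fold changes and 82% of 1.5-fold changes. The changed transcripts there were drawn from all levels, with 50 at each fold. Only 123 transcripts were called there, against 664 in the spleens, which makes the adjusted threshold stricter. These shares therefore do not give the recovery for the proteasome genes.

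Of the 3 immunoproteasome genes Psmb8 and Psmb9 were among the most abundant proteasome mRNAs, and no difference of the 3 passed. Psmb8, which encodes the immunoproteasome counterpart of the chymotrypsin-like subunit, stood at 73.7, 63.8, 59.4 and 66.0 FPKM in WT and at 64.0, 56.1, 59.7 and 60.2 FPKM in TTPΔARE spleens. The groups overlapped, with means of 65.7 ± 5.97 and 60.0 ± 3.23 FPKM (SD, n = 4 each; log2 -0.13, 95% interval -0.29 to 0.03, limma adjusted p = 0.349), and the value was -0.07 without WT replicate 1 and -0.03 with the erythroid covariate. Psmb9, the counterpart of Psmb6, stood at 65.8, 51.5, 48.2 and 52.5 FPKM in WT and at 53.2, 50.2, 49.8 and 51.9 FPKM in TTPΔARE spleens. Apart from WT replicate 1 all of these lie within a narrow band, and the log2 difference was -0.08 (interval -0.27 to 0.11, adjusted p = 0.662) and 0.02 without that spleen. Psmb10, the counterpart of Psmb7, stood at 32.3, 28.3, 27.7 and 26.3 FPKM in WT and at 28.5, 24.9, 29.4 and 29.1 FPKM in TTPΔARE spleens (log2 -0.03, interval -0.20 to 0.13, adjusted p = 0.852).

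Their constitutive counterparts had means of 24.5 to 38.0 FPKM, and none of the 3 passed. Psmb5, which encodes the chymotrypsin-like subunit, stood at 28.0, 25.4, 25.4 and 22.8 FPKM in WT and at 27.8, 22.8, 25.6 and 26.6 FPKM in TTPΔARE spleens (log2 0.02, interval -0.15 to 0.19, limma adjusted p = 0.925). Psmb6, the caspase-like subunit, stood at 29.3, 22.6, 24.6 and 24.6 FPKM and at 25.1, 22.9, 22.2 and 24.8 FPKM (log2 -0.08, interval -0.26 to 0.09, adjusted p = 0.606). Both genes had overlapping groups. Psmb7, the trypsin-like subunit, stood at 46.8, 35.0, 39.9 and 39.3 FPKM in WT and at 34.1, 35.1, 37.2 and 36.9 FPKM in TTPΔARE spleens. Its difference was -0.16 (interval -0.34 to 0.02, adjusted p = 0.285) and -0.09 without WT replicate 1.

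**Figure D2:**
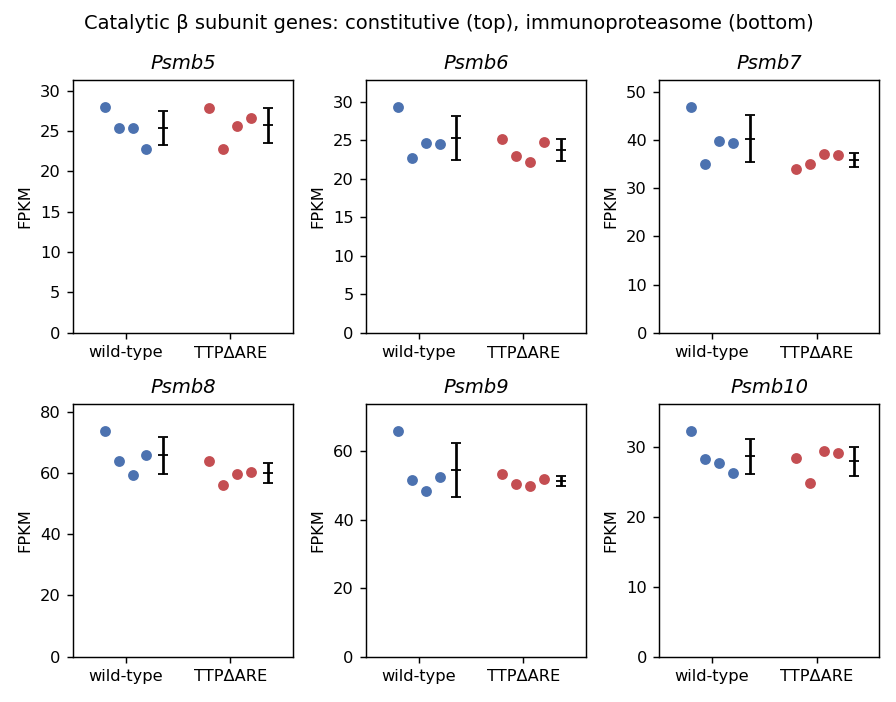
FPKM (y axis, from 0) of the 3 constitutive and 3 immunoproteasome catalytic genes in each WT and TTPΔARE spleen, points in the order of replicates 1 to 4, with the mean and SD in black. WT replicate 1 has the highest value in all 6 panels, and the groups overlap in each.

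The ratio of immunoproteasome to constitutive mRNA is given for each pair of counterparts as a description without a test. Psmb8 was 2.26 to 2.90 times as abundant per length as Psmb5 over the 8 spleens, with 2.60 ± 0.235 in WT and 2.34 ± 0.0859 in TTPΔARE (SD, n = 4 each), -0.15 on the log2 scale and -0.20 to -0.09 with 1 spleen left out. Psmb9 was 1.96 to 2.27 times as abundant as Psmb6, with 2.15 ± 0.143 and 2.16 ± 0.0718. Psmb10 was the only one of these below its partner, at 0.670 to 0.837 of Psmb7, with 0.716 ± 0.0629 and 0.781 ± 0.0529, 0.13 on the log2 scale and 0.09 to 0.19 with 1 spleen left out. These pairs differed in opposite directions, and the summed ratio of the 3 genes to their 3 partners was 1.64 ± 0.0956 in WT and 1.63 ± 0.0315 in TTPΔARE. WT replicate 1 did not stand apart here, at a summed ratio of 1.65.

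The promoters of these genes are shown because the constitutive and the immunoproteasome genes are known to answer to different transcription factors, and no gene of either set passed here. Antioxidant response elements bind factors such as the one encoded by Nfe2l1, which raises proteasome genes when proteasome activity is low. The sequences are RefSeq promoters of GRCm38.p6, the patch release of the mm10 build, 5′ to 3′ on the gene's strand and ending just before the annotated start. Capitals mark a match to TGACNNNGC (antioxidant response element). The Psmb5 promoter (chr14:54617996-54618245, minus strand) has 1 match to it:
Psmb5: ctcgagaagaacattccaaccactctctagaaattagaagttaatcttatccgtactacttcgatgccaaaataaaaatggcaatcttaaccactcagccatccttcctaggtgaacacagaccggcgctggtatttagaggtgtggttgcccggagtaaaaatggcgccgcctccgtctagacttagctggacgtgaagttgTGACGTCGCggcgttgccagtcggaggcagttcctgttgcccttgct
The 225 bases between the starts of Psmb9 and the peptide transporter gene Tap1, which run in opposite directions (chr17:34187331-34187555, shown on the strand of Psmb9), hold none:
Psmb9: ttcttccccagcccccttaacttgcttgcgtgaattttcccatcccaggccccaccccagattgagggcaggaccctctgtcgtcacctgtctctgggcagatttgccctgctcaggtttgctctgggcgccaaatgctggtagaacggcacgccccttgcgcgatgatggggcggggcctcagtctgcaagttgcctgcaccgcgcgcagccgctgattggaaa

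The motif was then counted over all members, beside 1 other. Promoter windows of 250 bases were found for 41 of the 49 symbols (those of Psmb7 and 7 others were not used here) and searched on both strands. TGACNNNGC was in 5 of the 41, 12.2%, and in 10.2% of all 32851 windows. The promoter box CCAAT was in 15, 36.6% against 33.85%. A match is a string of letters and not a site shown to be bound.

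Psmb9, Tap1, Psmb8 and Tap2 lie side by side in 34292 bases of the MHC on chromosome 17 (34182030 to 34216321, GRCm38), and all 4 had log2 differences below 0 that did not pass. With the erythroid covariate Psmb9 turned to 0.10 and Tap1 to 0.01, and without WT replicate 1 Psmb9 turned to 0.02. The transporter genes, which carry peptides from the proteasome into the endoplasmic reticulum, were singled out for this position. Tap1 stood at 26.8, 24.9, 23.0 and 26.4 FPKM in WT and at 25.6, 22.3, 21.5 and 22.1 FPKM in TTPΔARE spleens (log2 -0.14, limma adjusted p = 0.286). Tap2 stood at 40.9, 41.6, 41.3 and 44.0 FPKM in WT and at 43.1, 35.1, 36.5 and 35.6 FPKM in TTPΔARE spleens (log2 -0.16, adjusted p = 0.217). For Tap2, TTPΔARE replicate 1 lay within the WT range and the other TTPΔARE spleens below it.

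The remaining core genes did not pass. Of 7 α ring genes tested the log2 differences ran from -0.10 for Psma6 to 0.07 for Psma3, with limma adjusted p of at least 0.565, and 3 were above 0. Without WT replicate 1 the Psma6 value was -0.003 and the Psma3 value 0.12. Psma6 had the highest level of the ring, 56.8 ± 8.25 FPKM in WT and 52.7 ± 2.81 FPKM in TTPΔARE (SD, n = 4 each), and Psma5 the lowest, 18.4 ± 1.37 and 19.1 ± 1.92 FPKM. The ring's proteins are present in equal number in the particle, while these mRNA levels spanned 18.8 to 54.7 FPKM. The 4 β genes without a cutting site, Psmb1 to Psmb4, had differences from -0.11 for Psmb3 to 0.01 for Psmb2 (adjusted p of at least 0.523), with Psmb3 at -0.03 without WT replicate 1. Psmb1 led them at 40.4 ± 4.70 and 38.6 ± 2.22 FPKM. Psma8, the α subunit of germ cells, and Psmb11, the catalytic subunit of thymic cortical epithelium, had means of 0.490 and 0.0996 FPKM and were not tested.

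None of the 19S base genes passed. Their 9 log2 differences ran from -0.04 for Psmc4 to 0.06 for Psmc1, an ATPase, with limma adjusted p of at least 0.642 and a median of 0.003. Psmc3, the base gene of the highest mean, stood at 37.0 ± 3.06 FPKM in WT and 36.1 ± 1.14 FPKM in TTPΔARE (SD, n = 4 each). The ubiquitin receptor gene Psmd4 stood at 32.0 ± 0.800 and 32.7 ± 2.66 FPKM. All 9 intervals lay between 0.879-fold and 1.19-fold.

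Of 8 lid genes none passed by limma, and 2 had an unadjusted p under 0.05, where 21.1% of all transcripts tested did. These 2 went in opposite directions. Psmd8 stood at 31.7, 26.3, 26.6 and 26.5 FPKM in WT and at 23.9, 24.1, 24.4 and 24.3 FPKM in TTPΔARE spleens, all of the latter below all of the former. The log2 difference was -0.19 (interval -0.34 to -0.05, limma adjusted p = 0.128), and it was -0.13 without WT replicate 1, which stood far above the other WT spleens, and -0.12 with the erythroid level as a covariate. Psmd7, named for its p, stood at 24.9, 21.4, 23.1 and 22.5 FPKM in WT and at 25.7, 23.9, 27.0 and 26.2 FPKM in TTPΔARE spleens, with WT replicate 1 inside the TTPΔARE range. Its difference was 0.16 (interval 0.02 to 0.30, adjusted p = 0.170), 0.08 with the erythroid covariate. The other 6 lid genes ran from -0.04 to 0.05, with Psmd11, the most abundant of the lid, at 25.6 ± 1.99 and 26.5 ± 0.794 FPKM (SD, n = 4 each), and the ubiquitin-removing Psmd14 at 18.5 ± 1.92 and 18.2 ± 1.22 FPKM.

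The caps that open the core without ATP did not pass either. Psme1 and Psme2, which together form the interferon-inducible PA28 cap, were the 2 most abundant proteasome mRNAs. Psme1 stood at 107, 88.1, 84.9 and 83.7 FPKM in WT and at 91.1, 80.9, 95.1 and 94.0 FPKM in TTPΔARE spleens (log2 -0.01, limma adjusted p = 0.979). Psme2 stood at 84.6, 79.2, 72.8 and 87.2 FPKM and at 87.9, 81.2, 86.2 and 75.7 FPKM (log2 0.03, adjusted p = 0.853), and since the genome holds a close copy, Psme2b, the assignment of its reads is uncertain. Psme3, which forms the nuclear PA28γ cap, stood at 27.1, 27.2, 28.4 and 28.4 FPKM in WT and at 31.8, 28.1, 33.0 and 33.6 FPKM in TTPΔARE spleens, with TTPΔARE replicate 2 inside the WT range and the others above it. The difference was 0.18 (interval 0.04 to 0.32, adjusted p = 0.133). Without TTPΔARE replicate 2 it was 0.24 and passed (adjusted p = 0.0447), and with the erythroid covariate it was 0.01. Psme4, the PA200 cap, stood at 10.4 ± 0.438 and 10.3 ± 0.287 FPKM (SD, n = 4 each), and the inhibitor gene Psmf1 at 4.86 ± 0.550 and 5.24 ± 0.247 FPKM.

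Assembly factor genes were the least abundant group. Psmd5, a chaperone of the base, stood at 10.3, 10.5, 9.08 and 9.87 FPKM in WT and at 10.9, 10.9, 12.9 and 12.5 FPKM in TTPΔARE spleens, all of the latter above all of the former. The log2 difference of 0.23 (interval 0.07 to 0.39, limma adjusted p = 0.102) was the largest among the 46 proteasome genes and did not pass. It was 0.22 with the erythroid covariate and 0.19 to 0.27 with 1 spleen left out. Psmd9 and Psmd10, the other chaperones of the base, both had 0.09 (adjusted p = 0.521 and 0.618). The 4 core assembly genes Psmg1 to Psmg4 ran from -0.03 to 0.09 (adjusted p of at least 0.640), with Psmg2 the most abundant at 7.20 ± 1.05 and 7.67 ± 0.642 FPKM (SD, n = 4 each). The Psmg2 difference turned to -0.26 with the erythroid covariate and ran from 0.05 without WT replicate 2 to 0.18 without WT replicate 3. Among tested members precision was lowest for Psmg4, at 3.07 ± 0.656 and 2.98 ± 0.488 FPKM, a short transcript with an estimated 29.2 fragments in its lowest library, and its interval ran from -0.34 to 0.28. A second Psmg4 transcript, of mean 2.95 FPKM, had the other sign, 0.12 (interval -0.03 to 0.26, limma adjusted p = 0.336). The second transcripts of Psmd2, Psmd10 and Psme2 did not pass either.

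Psmc3ip was the single call among the 47 tested symbols. It stood at 1.54, 1.30, 1.63 and 1.23 FPKM in WT and at 1.99, 2.31, 1.86 and 1.83 FPKM in TTPΔARE spleens, with no overlap between the groups. The rise was 0.38 on the log2 scale (SE 0.0928, limma adjusted p = 0.0477). The lowest library held an estimated 51.2 fragments of it. The call was lost without any 1 spleen other than WT replicate 3, which left adjusted p values of 0.0630 to 0.119, with no filter on low values (0.0749), with 1 transcript per symbol (0.0543), with summed transcripts (0.0551) and with the erythroid covariate (0.678). Psmd5, Psmd8 and Psmc3ip were the only tested members whose groups did not overlap, 6.38% of 47, against 12.5% of all transcripts tested, of which 6.53% had all TTPΔARE values above and 5.99% all below.

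**Figure D3:**
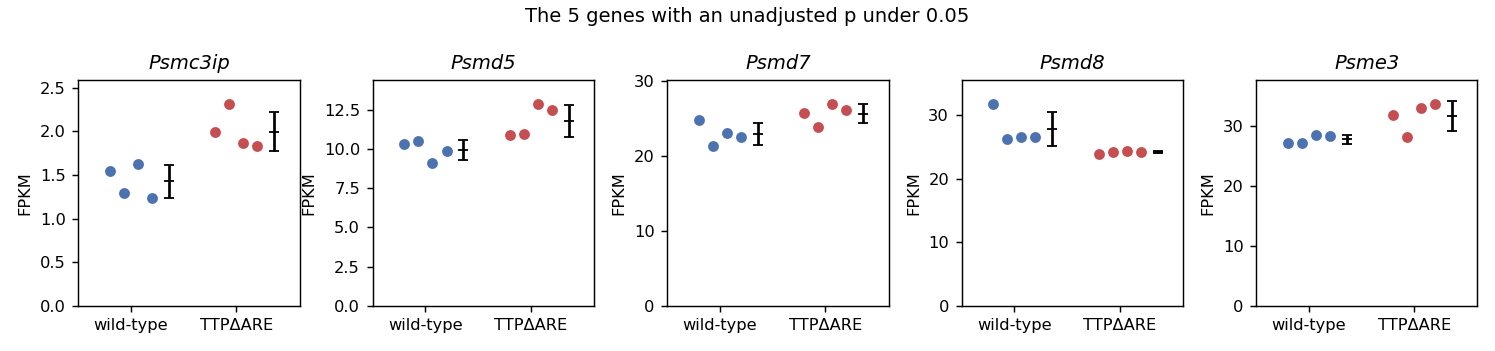
FPKM (y axis, from 0) of the 5 members with an unadjusted limma p under 0.05 in each spleen, points in the order of replicates 1 to 4, with the mean and SD in black. Psmc3ip and Psmd5 are higher in all 4 TTPΔARE spleens and Psmd8 lower in all 4, while the groups of Psmd7 and Psme3 overlap.

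Erythroid mRNA moved with the genotype in the same libraries. All 16 erythroid markers had log2 differences above 0, with a median of 1.23, and 6 rose (limma adjusted p under 0.05), and their summed level was 6083 to 11294 FPKM in WT and 14634 to 22411 FPKM in TTPΔARE spleens. The mean log2 level of the list, used as the covariate above, was 4.11 to 5.20 in WT and 5.22 to 6.18 in TTPΔARE spleens. It varied within each genotype but its ranges did not overlap, so covariate and genotype are tied. No member passed with it. Of 10 B cell markers 2 fell, Cd22 and Fcer2a, with summed levels of 1166 to 1254 FPKM in WT and 1018 to 1103 FPKM in TTPΔARE spleens. By limma 7 of the 10 had an unadjusted p under 0.05, of which only Cr2 was above 0. Of 8 plasma cell markers Txndc5 fell and 4 had an unadjusted p under 0.05, of which only Prdm1 was above 0. Of 10 T cell markers none passed by limma and 5 had an unadjusted p under 0.05, of which only Cd8a was above 0. Their summed levels were 217 to 238 FPKM in WT and 191 to 227 FPKM in TTPΔARE spleens. Of 11 myeloid and dendritic markers Emr1, Flt3 and Xcr1 rose and Lyz2 fell. An unadjusted p under 0.05 was found for 6 of these 11 and for all 16 erythroid markers. Over all transcripts tested 4.00% passed by limma and 21.1% had an unadjusted p under 0.05. No marker of these lists was at 0 in any spleen. The part of such shifts in the values of Psmd7, Psmd8 and Psme3 was not tested, since the covariate cannot be cleanly separated from genotype.

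Ordered by mean level, the 46 genes ran from Psme1 at 90.6 FPKM to Psmg4 at 3.02 FPKM, with a median of 25.8 FPKM. Behind the PA28 pair and Psmb8 followed Psma6, Psmb9 and Psma1, and the 19S genes lay between 15.8 and 36.5 FPKM. Neighbours in this order mostly did not separate: of 45 neighbouring pairs 41 had overlapping values over the 8 spleens. The steps without overlap were those from Psmd1 down to Psmd5, from Psme4 to Psmg2, from Psmg2 to Psmg1 and from Psmf1 to Psmd9. All of these lie at or below Psmd1, the lowest of the 19S subunits.

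As groups, the core genes stood higher in WT replicate 1 than the 19S genes, which is given as a description. It was the highest of the WT spleens for all 17 core genes tested, the 3 immunoproteasome genes among them, and the highest of all 8 for 13, while among the 17 base and lid genes it was highest of the WT spleens for 8 and of all for 5. The median deviation from the mean of the 8 spleens was 0.26 on the log2 scale for the core genes and 0.03 for the 19S genes in this library. Single 19S genes were high in it too: Psmd8 at 31.7 FPKM against 23.9 to 26.6 in the other 7 spleens, Psmc6 at 29.0 against 20.5 to 26.0 and Psmd13 at 22.4 against 17.7 to 19.5, all chosen after their values were seen. In the other 7 spleens both medians lay between -0.11 and 0.07. The same library had a summed level of 610.0 FPKM for 8 plasma cell markers against 270.4 to 388.2 FPKM in the others, and of 1650 FPKM for 14 ubiquitin and segregase genes against 1391 to 1571 FPKM. It was also highest for the MHC class I list, 3065 FPKM against 2497 to 2690, and for myeloid and dendritic markers, 1111 against 793.0 to 1064. The same held for T cell markers, 237.6 FPKM against 191.3 to 227.0, and the interferon-γ list, 242.2 against 191.0 to 237.1. It was not highest for B cell markers, erythroid markers or the other proteasome and delivery genes. The part of these in the core values was not tested. Without WT replicate 1 the median of the 46 log2 differences was 0.02.

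**Figure D4:**
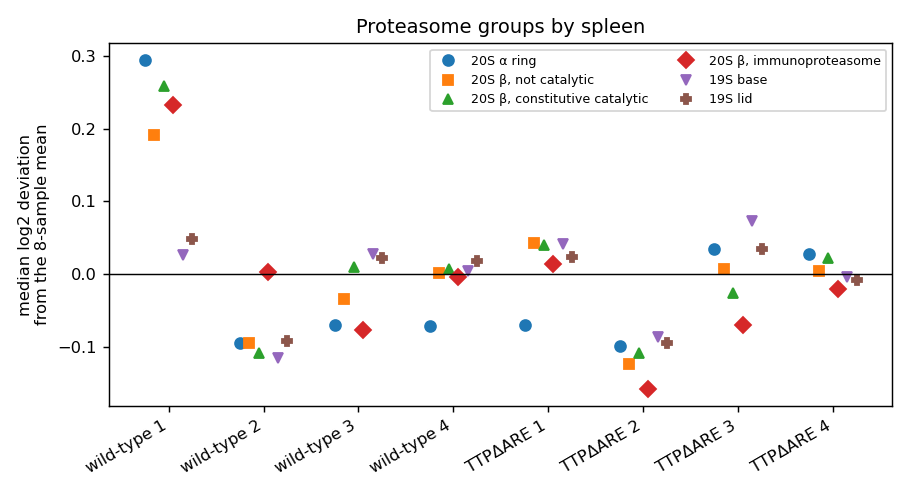
Median log2 deviation from the mean of the 8 spleens (y axis) of each proteasome group in each spleen (x axis). WT replicate 1 stands at 0.19 to 0.29 for the 4 core groups and at 0.03 and 0.05 for base and lid, and in the core, base and lid groups the other WT spleens and the TTPΔARE spleens overlap.

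Proteasome genes whose symbols do not match the pattern, and genes that deliver substrates, gave 1 call among 18 tested, beside 4.00% of all transcripts tested. Ubqln1, a shuttle that brings ubiquitin-tagged proteins to the proteasome, stood at 8.80, 10.1, 9.68 and 9.56 FPKM in WT and at 12.3, 10.9, 13.0 and 11.7 FPKM in TTPΔARE spleens, without overlap. It rose by 0.31 on the log2 scale (SE 0.0667, limma adjusted p = 0.0281). Leaving out WT spleen 1 or 4, or spleen 1, 3 or 4 of the TTPΔARE mice, lost the call (adjusted p = 0.0543 to 0.101), and the value was 0.20 with the erythroid covariate (adjusted p = 0.835). Pomp, the maturation factor of the core and the most abundant of the list, stood at 53.0 ± 5.30 and 54.2 ± 3.66 FPKM (SD, n = 4 each; log2 0.03). Nfe2l1 stood at 6.06, 6.92, 6.51 and 6.84 FPKM in WT and at 7.30, 7.62, 7.45 and 6.99 FPKM in TTPΔARE spleens, also without overlap, and did not pass (log2 0.15, adjusted p = 0.188). It was chosen after its values were seen. The median of the list was 0.04.

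Among 14 ubiquitin and segregase genes 1 rose and 0 fell, where 4.00% of all transcripts tested passed in either direction. Ube2l6, which encodes an enzyme that conjugates the ubiquitin-like protein ISG15, stood at 26.0, 30.2, 23.9 and 21.5 FPKM in WT and at 39.8, 35.2, 53.3 and 50.4 FPKM in TTPΔARE spleens, without overlap. It rose by 0.79, 1.73-fold (SE 0.135, limma adjusted p = 0.0120), kept the call with any 1 spleen left out (adjusted p of at most 0.0424) and had 0.63 with the erythroid covariate (adjusted p = 0.678). The polyubiquitin gene Ubb, the most abundant of the list, stood at 499 FPKM in both groups, with SDs of 40.6 and 31.2 FPKM. The median of the list was 0.02.

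Genes of MHC class I processing and of the interferon-γ response gave no call by limma: 0 of 15 and 0 of 18, with 3 in each list at an unadjusted p under 0.05. Of all transcripts tested 4.00% passed and 21.1% had an unadjusted p under 0.05. B2m, the light chain of MHC class I, stood at 1209 ± 168 FPKM in WT and 1178 ± 84.2 FPKM in TTPΔARE (SD, n = 4 each; log2 -0.03, 0.06 without WT replicate 1). The aminopeptidase gene Npepps, of the smallest p in its list, had 0.16 (adjusted p = 0.177). In the interferon-γ list the guanylate-binding protein gene Gbp5 had the smallest p, 0.23 (adjusted p = 0.0596), the class II transactivator gene Ciita, singled out after its values were seen, the largest difference, -0.32 with all TTPΔARE spleens below all WT spleens (adjusted p = 0.0874), and the GTPase gene Irgm1 the highest mean, at -0.05 (adjusted p = 0.777). The medians of the 2 lists were -0.03 and -0.02. They stand beside 0.003 for all transcripts tested and -0.02 for the 4176 with a mean of at least 10 FPKM.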

How the data were processed

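The authors deposited 1 table of FPKM, with a RefSeq transcript in each row, for the 4 WT and 4 TTPΔARE spleens. The submitters' processing notes name BWA and the build mm10. No source used here gives the counting tool, the annotation release, the strand setting, any filter or the treatment of reads with several matches. Groups came from the genotype labels, which name no batch, litter or pairing. Replicates were numbered 1 to 4 in each group as names only.

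Count models were left out, since FPKM are normalized values. Depth estimates came from values of at most 0.5 FPKM, of which 43.8 to 46.5% were whole fragments within 0.05 at the best depth and 8.20 to 8.47% at a typical other depth; fragment counts were not rebuilt, and estimated fragments used GENCODE M21 lengths. The 16608 transcripts of mean 0.5 FPKM or more were tested on log2(FPKM + 0.5), which understates changes of low transcripts, with limma 3.58.1 in R 4.3.3 (variance trend, two-sided, Benjamini-Hochberg over all tested, threshold 0.05). The same code called 123 of 16608 simulated transcripts, 8 of them false, with 50 changed at each of 1.2-, 1.3-, 1.5- and 2-fold. Gene positions and promoters are from RefSeq on GRCm38.p6. Tables were made with Python 3.11.15, pandas 2.3.3 and numpy 2.4.6, and plots with matplotlib 3.10.9.

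The members and lists were chosen with earlier results of these data known. Named genes are the 6 catalytic β genes, Zfp36, members past the threshold or without overlap, and in each group or list those of the smallest p and the highest mean; others were named for their level, role or position after their values were seen. Alternatives were other pseudocounts, filters and scalings, no variance trend, an erythroid covariate, 1 or summed transcripts per symbol, a threshold of 0.1 and leaving out each spleen. Other promoter motifs that were searched are not reported here.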

Additional observations from a re-analysis of the deposited data

Results flagged for a closer look

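In 9 of 98 groups of 4 spleens (49 members in 2 genotypes) the highest or lowest spleen stood far from the other 3, and chance alone flags about 1 in 20 such groups. In 4 of these the spleen was WT replicate 1, the highest each time. It stood at 44.8 FPKM for Psma2 against 31.4 to 32.0 in the other WT spleens, at 20.4 FPKM for Psma5 against 17.6 to 17.8, at 45.6 FPKM for Psma7 against 33.4 to 34.8, and at 31.7 FPKM for Psmd8 against 26.3 to 26.6. WT replicate 3 was low for Psmg4, at 2.10 FPKM against 3.25 to 3.47. TTPΔARE replicate 1 was low for Psma4, at 34.0 FPKM against 37.8 to 38.5 in its group, and for Psmc6, at 23.0 FPKM against 25.5 to 26.0. TTPΔARE replicate 2 was low for Psmc3, at 34.4 FPKM against 36.4 to 36.8, and for Psmd4, at 28.8 FPKM against 33.7 to 34.3. Among the other named genes 2 of 56 groups were flagged: B2m was high in WT replicate 1, at 1459 FPKM against 1093 to 1150, and the dendritic cell receptor gene Flt3 was high in WT replicate 2, at 10.9 FPKM against 9.07 to 9.20.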

How the results depend on the processing

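No paired analysis was possible because the labels give the spleens no shared replicate numbers, litters or batches. The count of members past the limma threshold was 1 higher and 0 lower, and the 1 higher, Psmc3ip, fell to 0 with no filter on low values, with the erythroid covariate, with 1 transcript per symbol and with summed transcripts, and ranged from 0 to 1 with 1 spleen left out. No other member passed in any of the settings, except Psme3 without TTPΔARE replicate 2. The genes of the 4 pathway lists past the threshold numbered 2 higher and 0 lower, 0 higher with the erythroid covariate, 4 higher and 1 lower at a threshold of 0.1, and 1 to 2 higher with 1 spleen left out. The marker list genes numbered 9 higher and 4 lower, 5 higher with quantile normalization, 0 higher and 0 lower with the erythroid covariate, 9 lower at a threshold of 0.1, and 1 to 16 higher and 2 to 6 lower with 1 spleen left out (1 higher without WT replicate 4 or TTPΔARE replicate 3, 3 without TTPΔARE replicate 4 and 16 without WT replicate 3). The cause of these changes was not tested. The median log2 difference of the proteasome genes ran from -0.03 to 0.04 with 1 spleen left out and was -0.06 with the erythroid covariate. Of 912 values of 48 named genes under the alternatives, 820 stayed on their side of the threshold, 86 lost their call, 6 gained one and 0 of those called reversed, while the differences of 8 of the 20 members named changed sign under at least 1 alternative, all without a call. The summed ratio of immunoproteasome to constitutive genes differed between genotypes by -0.04 to 0.02 on the log2 scale with 1 spleen left out. Among tested members depth limits Psmg4 and Psmc3ip most, and 4 spleens a group limit all calls.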
